A study of Mus musculus with 6 samples.

Results

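The 8 genes Prg4, Chad, Comp, Cnmd, Acan, Hapln1, Matn1 and Sox9 encode proteins of cartilage and joint matrix other than collagens, together with the transcription factor of cartilage cells. They were followed in the cochlea, which houses the sensory cells for sound, in males of the inbred mouse strain DBA/2J, known for its early hearing loss. Total RNA of the cochlea was taken from 3 samples at 36 weeks of age and from 3 samples at 7 weeks, and each sample was hybridised to its own single-colour Affymetrix array. The labels name no treatment or engineered allele, and the study compared the older samples with the younger ones. The labels do not say whether each sample came from 1 mouse or from several, so the spread between arrays may be partly technical. Every probe set annotated to exactly 1 of the 8 symbols was taken, which covered all 8, of the 12393 genes named by single-symbol probe sets, and gave 11 of the 22626 probe sets on the array: 3 for Hapln1, 2 for Sox9 and 1 for each of the others. No probe set with several symbols named any of the 8. The genes were picked with the difference between these same ages in view, and with members that were higher and members that were lower placed side by side. Their differences between 36 and 7 weeks are therefore a description and carry no test.

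Cartilage is a stiff gel held together by few kinds of molecule. Aggrecan, the product of Acan, is a large proteoglycan whose many charged sugar chains draw in water, and link protein, the product of Hapln1, fastens it to hyaluronan. Adaptor proteins such as chondroadherin (Chad), cartilage oligomeric matrix protein (Comp) and matrilin 1 (Matn1) tie collagen fibrils, cells and proteoglycans together, chondromodulin (Cnmd) keeps blood vessels out, and lubricin (Prg4) coats the surfaces of joints. Sox9 is the transcription factor that switches on many cartilage genes. It is also expressed in the epithelium of the developing inner ear. The bony capsule around the cochlea forms on a cartilage template, and the small bones of the nearby middle ear meet at joints.

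The promoters of Chad, Cnmd and Acan are shown because Chad was higher at 36 weeks while Cnmd and Acan were lower, and RefSeq sequence (build GRCm38.p6) was at hand for them. A promoter was found for 5 of the 8 members. Each line gives the 250 bases before the annotated transcription start, 5′ to 3′ on the strand of the gene, with the TATA box letters TATAAA and the GC box letters GGGCGG in capitals on either strand. They lie at chr11:94564797-94565046 on the plus strand, chr14:79662184-79662433 on the minus strand and chr7:79052976-79053225 on the plus strand.
Chad: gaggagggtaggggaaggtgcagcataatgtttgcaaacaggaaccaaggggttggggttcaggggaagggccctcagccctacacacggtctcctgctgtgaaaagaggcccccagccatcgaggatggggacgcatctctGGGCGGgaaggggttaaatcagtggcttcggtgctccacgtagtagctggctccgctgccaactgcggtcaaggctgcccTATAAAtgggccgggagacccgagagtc
Cnmd: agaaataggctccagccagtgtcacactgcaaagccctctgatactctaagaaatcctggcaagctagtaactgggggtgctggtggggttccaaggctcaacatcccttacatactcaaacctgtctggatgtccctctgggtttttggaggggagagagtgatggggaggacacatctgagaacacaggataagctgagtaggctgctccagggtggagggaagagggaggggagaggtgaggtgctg
Acan: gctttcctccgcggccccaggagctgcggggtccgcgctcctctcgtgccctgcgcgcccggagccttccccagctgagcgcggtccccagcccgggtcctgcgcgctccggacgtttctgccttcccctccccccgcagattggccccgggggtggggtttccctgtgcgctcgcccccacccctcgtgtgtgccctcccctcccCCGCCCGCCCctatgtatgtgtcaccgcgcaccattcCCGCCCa
The Chad promoter held TATAAA 28 bases before the start, and 12.4% of the 32841 promoters of the same length held these letters. It also held GGGCGG once, and Acan held it at 3 places, 2 of which overlap by 2 letters. The share of all promoters with GGGCGG was 32.7%. The Acan promoter was 74.4% G and C, that of Chad 60.4% and that of Cnmd 54.0%, against a median of 52.4% over all promoters. The letters ACAANG, a core that SOX proteins can bind, stood in 2 of the 5 promoters, those of Hapln1 and Matn1, and in 36.3% of all promoters. The letters TGTGGT, a core for RUNX proteins, stood in the same 2 promoters and in 14% of all. In Matn1 these 2 matches, beginning 137 and 134 bases before the start, share letters, and no overlap of different motifs was masked. A match or its lack describes the letters in this window alone.

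The 8 genes went both ways with age. Signals of Prg4, Chad, Comp and Matn1 were higher at 36 weeks on every array, those of Cnmd, Acan and Sox9 were lower on every array, and the 3 probe sets of Hapln1 overlapped between the ages. Of the 11 probe sets, 4 were higher and 4 lower at 36 weeks with no overlap between ages, beside 19.2% higher and 17.8% lower, or 37% in either direction, of all probe sets on the array. In samples of a whole organ, fewer cells of a type and less RNA per cell cannot be told apart. A probe set was tested if its mean signal over the 6 arrays exceeded the 40th percentile, a signal of 593.6. This level was exceeded by 6 of the 11 probe sets, 1 each for Prg4, Chad, Comp, Cnmd, Acan and Sox9, and for these 6 the mean of either age alone was above it too. All 6 had an adjusted p under 0.05 by limma, 3 higher and 3 lower. Over all 13575 tested probe sets 34.4% did, 16.7% higher and 17.7% lower. Since the members were chosen on this contrast, nothing is read from these counts. Differences below are of log2(signal + 50), 36 weeks minus 7 weeks, with the standard error (SE) and 3 arrays per age. Folds are ratios of mean signals.

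**Figure D1:**
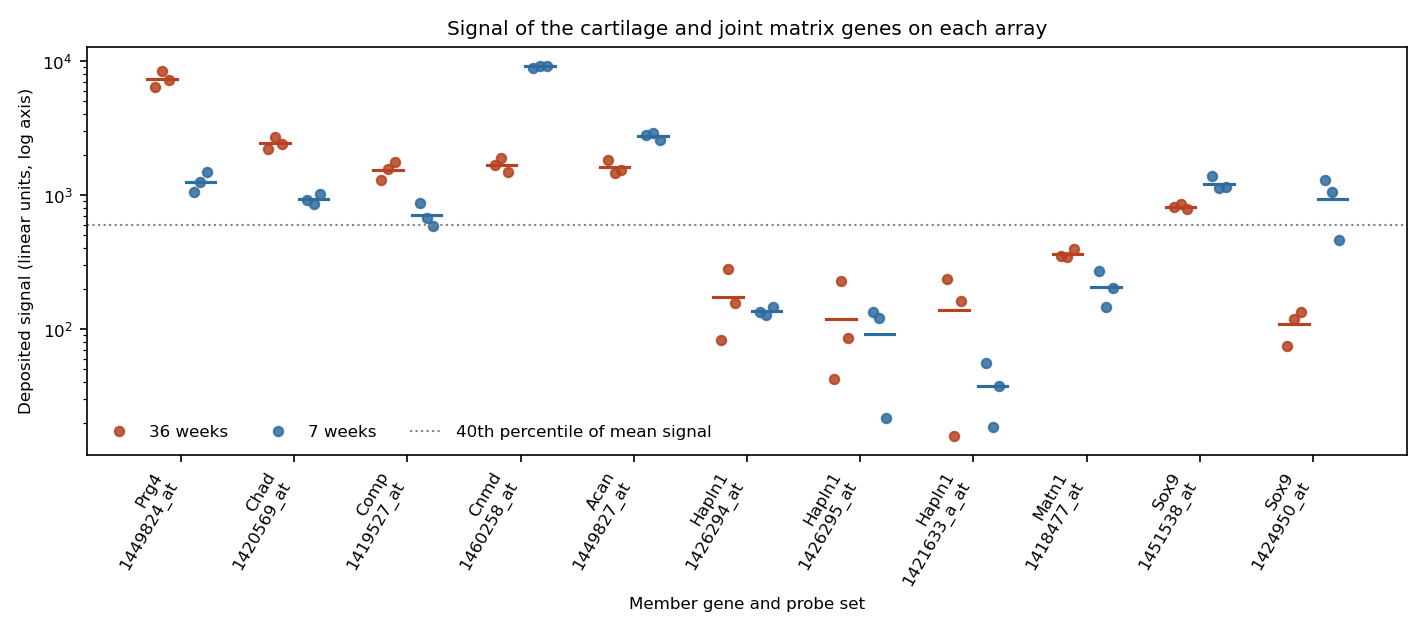
Deposited signal (log axis) of the 11 probe sets on each array, 36 weeks in red to the left of 7 weeks in blue; points are arrays, bars are means and the dotted line is the 40th percentile of mean signal, 593.6. Prg4 lies between 6396.3 and 8363.2 at 36 weeks, above all 7-week arrays, while Cnmd lies between 1477.2 and 1894.4, below all of them.

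Prg4, which encodes the lubricant of joint surfaces, had the largest difference upward among the 6 tested probe sets of the members. Its signal was 6396.3, 8363.2 and 7175.6 at 36 weeks, against 1047, 1249.4 and 1476.7 at 7 weeks. The lowest array at 36 weeks was 4.33 times as bright as the highest at 7 weeks. The mean was 7312 ± 990.5 at 36 weeks and 1258 ± 215 at 7 weeks (SD, n = 3 each), which is 5.81-fold and a log2 difference of 2.50 ± 0.14 (SE). Across the 9 pairs of an old and a young array, the comparison that the study itself made, the log2 difference ranged between 2.08 and 2.94.

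Among the genes of the proteoglycan aggregate, the signal of Acan was lower at 36 weeks and those of Hapln1 were too dim to follow. Acan had signals of 1814.3, 1467.3 and 1544.4 at 36 weeks, against 2788.6, 2890.6 and 2590.5 at 7 weeks. All arrays at 36 weeks lay below all arrays at 7 weeks. The log2 difference was -0.76 ± 0.12, and the 9 pairs ranged between -0.95 and -0.50. The probe set 1426294_at of Hapln1 read 82.8, 281.1 and 155.5 at 36 weeks and 134.7, 127.1 and 146.2 at 7 weeks, so the ages overlapped. Its probe set 1426295_at read 42.5, 227.2 and 86.1 at 36 weeks and 133.2, 120.7 and 21.7 at 7 weeks. Its probe set 1421633_a_at read 237.4, 15.8 and 161.7 at 36 weeks and 55.6, 18.5 and 37.8 at 7 weeks. The array that was highest at 36 weeks in 1426294_at and 1426295_at was the lowest in 1421633_a_at, and no order of the ages could be read for this gene. Leaving out that array turned the difference of 1426294_at to -0.17 and that of 1426295_at to -0.22, against 0.16 and 0.21 with all arrays.

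Signals of the genes of the adaptor proteins were higher at 36 weeks, that of Matn1 being dim and not tested. Chad, a leucine-rich protein that binds collagen and cell surface integrins, had signals of 2219.6, 2727.3 and 2395.7 at 36 weeks, against 923.9, 863.3 and 1010.4 at 7 weeks. The groups were well apart, with a 2.62-fold higher mean and a log2 difference of 1.34 ± 0.14. Comp, a thrombospondin family protein that binds collagen fibrils in cartilage and tendon, had 1294.3, 1567.3 and 1757.7 at 36 weeks, against 871.5, 667.8 and 582.2 at 7 weeks. All arrays at 36 weeks were again above all arrays at 7 weeks, but the gap was narrower. The mean was 2.18-fold higher and the log2 difference was 1.08 ± 0.20, with the 9 pairs ranging between 0.54 and 1.52. Matn1, whose product forms filaments in cartilage, had 349.2, 346.6 and 395.2 at 36 weeks, against 270.9, 147 and 200.6 at 7 weeks. These signals do not overlap, yet they are dim and the probe set was not tested. Its log2 difference was 0.72 ± 0.21 and depends on the offset of 50, being 0.86 with an offset of 1.

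Cnmd had the largest difference downward among the 6 tested probe sets of the members. The gene encodes a membrane glycoprotein from which a vessel-inhibiting fragment is released in avascular cartilage. Its signal was 1675.4, 1894.4 and 1477.2 at 36 weeks, against 8902.8, 9243.1 and 9151.8 at 7 weeks. The highest array of 7 weeks exceeded the lowest by 3.82%, and the arrays of 36 weeks were all far below. The mean was 1682 ± 208.7 at 36 weeks and 9099 ± 176.1 at 7 weeks (SD, n = 3 each), 5.41-fold lower at 36 weeks, with a log2 difference of -2.41 ± 0.11.

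Sox9 was lower at 36 weeks by both of its probe sets, but by very different amounts. The probe set 1451538_at read 812.9, 858.7 and 787.3 at 36 weeks, against 1383.3, 1120.3 and 1144 at 7 weeks, and its log2 difference was -0.54 ± 0.17. The probe set 1424950_at read 74.9, 119.4 and 133.3 at 36 weeks, against 1290.1, 1045.2 and 460.2 at 7 weeks, a log2 difference of -2.53 ± 0.46. Neither probe set overlapped between the ages. At 7 weeks the array with 460.2 on 1424950_at stood well below the other 2, whereas the same array was in the middle on 1451538_at. Averaging the log2 values of both probe sets gave -1.53. The brighter probe set, 1451538_at, was no longer past the threshold when any 1 of the 6 arrays was left out. Its log2 differences then lay between -0.59 and -0.44. It also did not pass with the replicate number as a block or with no filter. The members still counted 3 lower with no filter or without any 1 array of 36 weeks, 1424950_at among them. They counted 2 lower with the block or without any 1 array of 7 weeks. The members were picked on this contrast, so nothing is read from these calls.

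**Figure D2:**
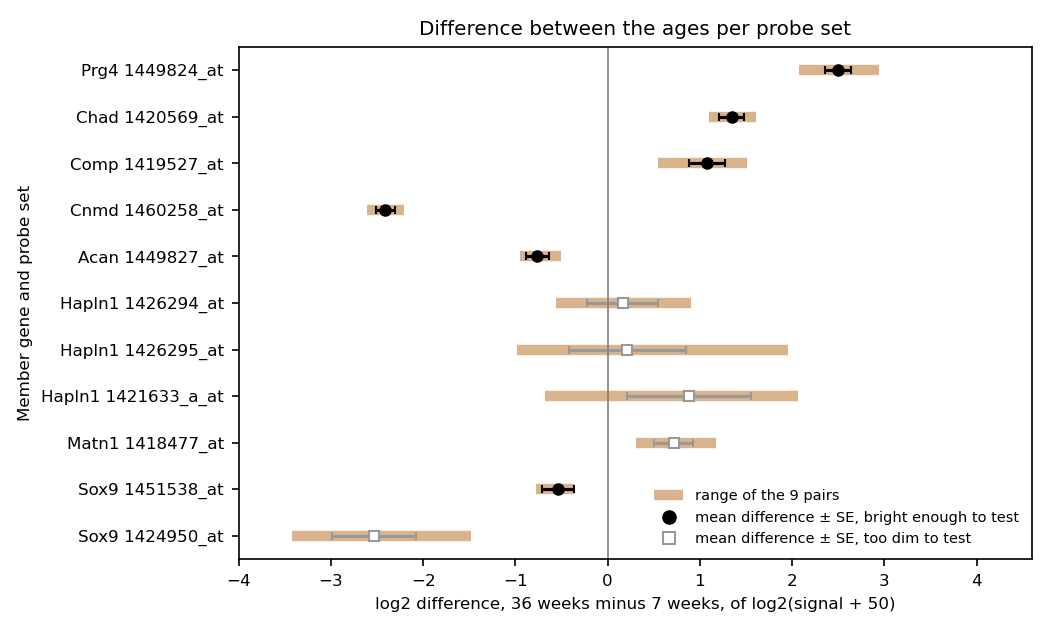
Log2 difference (36 weeks minus 7 weeks, of log2(signal + 50)) for each probe set of the 8 genes; markers are the mean difference with its SE, and the tan bar spans the 9 pairs of arrays. Prg4, Chad, Comp and Matn1 lie right of 0, Cnmd, Acan and both Sox9 probe sets lie left of it, and the pairs of all 3 Hapln1 probe sets span 0.

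Differences between members within an array depend little on how the arrays were scaled to each other. The log2 signal of Prg4 minus that of Cnmd was 1.90, 2.11 and 2.24 on the arrays of 36 weeks, against -3.03, -2.84 and -2.59 on those of 7 weeks. The gap thus moved by 4.91 on the log2 scale. For Chad minus Acan it was 0.28, 0.87 and 0.62 at 36 weeks, against -1.54, -1.69 and -1.32 at 7 weeks, a shift of 2.11. For Comp minus Acan the shift was 1.84, and for Prg4 minus Sox9 (1451538_at) it was 3.03. In all 6 arrays the gap fell on the side of its own age, with no overlap between the ages for any of these pairs of genes. These shifts describe genes placed together for their opposite directions.

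The arrays of 1 age did not rank the members alike. At 36 weeks the array of replicate 2 was the highest for Prg4, Chad, Cnmd and the brighter Sox9 probe set, and the lowest for Acan. The array of replicate 3 was the highest for Comp and the lowest for Cnmd. Within an age the log2 SD of Prg4 was 0.22, against a median of 0.13 over the 500 probe sets nearest to it in brightness. For Chad it was 0.13 against 0.18, for Comp 0.25 against 0.22, for Cnmd 0.12 against 0.11, for Acan 0.12 against 0.16 and for Sox9 (1451538_at) 0.12 against 0.24. The SD of Prg4 lay above that median and the SD of Sox9 below it. The match was on mean brightness over both ages, and an SD from 3 arrays per age is itself imprecise.

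Signals of marker genes of the cochlea and of other tissues moved strongly between the same ages. The part of these tissues in the results for the 8 genes was not tested. The 9 of 12 cochlear marker genes that were tested held 8 lower at 36 weeks, Coch, Otos, Gjb2, Gjb6 and Slc26a4 among them, and the summed signal of the list was 54662 to 55327 at 36 weeks, against 215890 to 224000 at 7 weeks. None of the markers was at 0 on any array, the lowest deposited signal of all being 0.6, but Tecta, Slc26a5 and Pou4f3 were too dim to be tested. The hair cell genes of the list did not share the lower direction. Pou4f3, a hair cell transcription factor, read 681.2, 824.2 and 552.4 at 36 weeks, against 17.3, 231.4 and 281.2 at 7 weeks. Slc26a5, the motor protein of outer hair cells, had a log2 difference of 0.33 with no overlap between ages, and Myo7a had 0.35 and did not pass. All 10 neutrophil and granulocyte precursor genes were higher, with a summed signal of 681370 to 725810 at 36 weeks, against 47495 to 53163 at 7 weeks. Skeletal muscle genes were lower, 8 of 8, with sums of 58289 to 58951 at 36 weeks and 174710 to 186070 at 7 weeks. Genes of cerebellum and brain were higher, 7 of 7, with 69421 to 73939 at 36 weeks and 20021 to 20140 at 7 weeks. Anterior pituitary genes were higher in 5 of 5, with 76649 to 82055 at 36 weeks and 6202 to 7136 at 7 weeks. Of the mucosal epithelium genes 5 of 7 were higher and 1 lower.

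Bone and growth cartilage markers, which lie closest to the members by tissue, did not move as a block. Of 8 tested osteoblast and osteocyte genes 5 were lower and 1 was higher at 36 weeks, with sums of 38924 to 43158 at 36 weeks and 49998 to 55098 at 7 weeks. Ibsp, bone sialoprotein, averaged 196 at 36 weeks and 1955 at 7 weeks, and Mepe, of osteocytes, averaged 286.9 at 36 weeks and 1669 at 7 weeks, whereas the 2 chains of type I collagen, the main collagen of bone, went opposite ways. Col1a1 was higher by 0.53 ± 0.12, and Col1a2 fell by 0.62 ± 0.06 on the log2 scale. Of 4 tested osteoclast genes 2 were higher, Mmp9 and Oscar, with sums of 11122 to 12846 at 36 weeks and 6973 to 7183 at 7 weeks. Mmp9 is also abundant in neutrophils. The 3 tested markers of hypertrophic cartilage, Ihh, Pth1r and Mmp13, did not pass the threshold by limma (unadjusted p of 0.134, 0.426 and 0.471, n = 3 per age), and the sums of the list overlapped, 3286 to 3911 at 36 weeks and 3459 to 3968 at 7 weeks. Col10a1, the collagen that defines such cartilage, was dim and overlapped, at 76.1, 304.7 and 84.5 at 36 weeks and 71.7, 80.7 and 102 at 7 weeks.

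**Figure D3:**
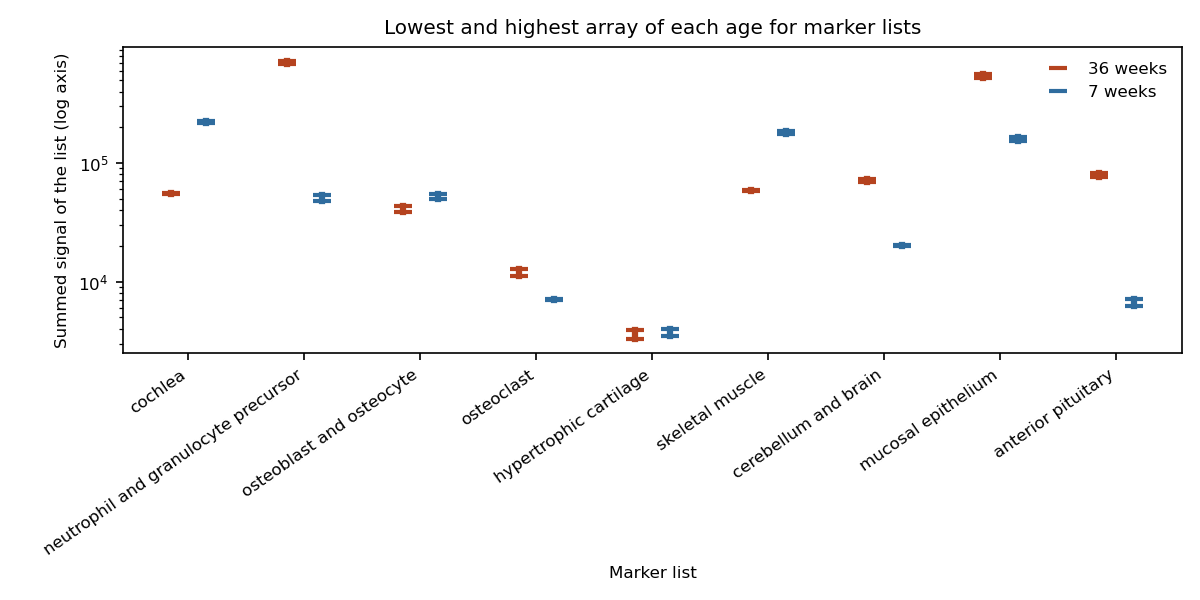
Summed signal (log axis) of each marker list, with the bar spanning the lowest to the highest of the 3 arrays of an age, 36 weeks in red to the left of 7 weeks in blue. The neutrophil, brain, mucosal and pituitary sums are higher at 36 weeks, the cochlear and muscle sums lower, and the hypertrophic cartilage sums overlap.

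Around the 8 members, other genes of cartilage and joints were more often lower than higher at 36 weeks. Of 102 such genes in 8 lists 84 had a probe set and 52 were tested, of which 5 were higher, 20 lower and 27 not past the threshold. With the log2 values of all probe sets of a gene averaged, 5 were higher and 18 lower. Their median log2 difference was -0.28, beside 0.02 over all tested probe sets, of which 16.7% were higher and 17.7% lower. Taken likewise by the brightest tested probe set, all 8555 genes had a median of 0.02, with 1493 higher and 1509 lower. Of the genes in the 8 lists 13 stand in more than 1 list, so the counts per list repeat some genes. The lists were described by these counts and not tested as sets. All adjusted p-values below come from limma with Benjamini-Hochberg adjustment over the 13575 tested probe sets, with 3 arrays per age.

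The collagens of cartilage showed this direction most evenly, 5 of 5 tested being lower with a median of -1.27. Col9a3 of type IX collagen, which decorates the fibril surface, read 154.8, 356.7 and 168.4 at 36 weeks, against 1990.9, 2274.7 and 2182.4 at 7 weeks (log2 difference -3.06 ± 0.29, adjusted p = 1.93e-05). Its level at 36 weeks was dim, so the size depends on the offset. Col9a1 had a log2 difference of -1.67 and Col11a2, of the fibril core, of -1.07. Col2a1, the main cartilage collagen, averaged 1501 at 36 weeks and 3660 at 7 weeks and was lower as well. The cochlear sums given above were lower on the same arrays, and the cells of origin of these collagens were not tested.

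Among the other matrix proteins of cartilage, 5 of 11 tested genes were lower and 6 did not pass, with a median of -0.47. Epyc, a small leucine-rich proteoglycan found in cartilage and also in supporting cells of the cochlea, read 1394.5, 1286.1 and 1200.9 at 36 weeks, against 16370.9, 16846.7 and 16417.9 at 7 weeks (adjusted p = 6.22e-10). Otor, otoraplin of cartilage and inner ear, averaged 1636 ± 88.1 at 36 weeks and 5770 at 7 weeks, with a log2 difference of -1.78 ± 0.12. Mgp, an inhibitor of matrix calcification, fell by 1.16 ± 0.07 on the log2 scale. Frzb, a secreted Wnt antagonist, and Fmod, fibromodulin, were the other 2. Fmod had an adjusted p of 0.0261, which became 0.0663 to 0.0917 when replicate 2 or 3 of either age was left out. That probe set is of the _x_at kind, which can bind related transcripts. Of the 5 tested probe sets of Fmod the 4 of this kind were lower, while the other had a log2 difference of -0.18 ± 0.19 with overlapping ages and did not pass (adjusted p = 0.489).

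Of the transcription factors 3 of 6 tested were lower and 3 did not pass. Zbtb20, a zinc finger protein, fell by 1.76 ± 0.15 (adjusted p = 1.09e-05), and Mef2c, which acts in hypertrophic cartilage and in muscle and neurons, by 0.80 ± 0.12. Sox10, a paralogue of Sox9 that marks glia and pigment cells, read 2719.3, 3524.5 and 2170.7 at 36 weeks, against 3372.9, 4596 and 5094.5 at 7 weeks. These ranges overlap, and its adjusted p of 0.0245 became 0.0594 to 0.0915 without replicate 1 or 3 of 36 weeks or replicate 2 or 3 of 7 weeks. Sox5, a partner of Sox9 on cartilage genes, averaged 741.9 at 36 weeks and 446.1 at 7 weeks and did not pass. Sox6, the other partner, was not tested, at 228.5 at 36 weeks and 660.6 at 7 weeks.

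Genes that make or bind hyaluronan and sulfated sugar chains showed 2 higher and 6 not past the threshold of 8 tested, with a median of 0.03. Cd44, a hyaluronan receptor of leukocytes and many other cells, rose by 1.09 ± 0.14 (adjusted p = 0.000208) and Chpf, a chondroitin-polymerising factor, by 1.01 ± 0.13 (adjusted p = 0.000193). The neutrophil sums given above were higher on the same arrays as Cd44, whose cell of origin was not tested. Has1, a hyaluronan synthase, and the sulfate genes Papss2 and Slc26a2 averaged 1227, 1394 and 896.1 at 36 weeks, against 1215, 1368 and 888.7 at 7 weeks, and none of these 3 passed. Hyal2 and Ugdh did not pass either, though both were lower at 36 weeks with no overlap between ages. They averaged 648.5 and 3033.6 at 36 weeks, against 1237.2 and 3652.7 at 7 weeks (adjusted p = 0.0542 and 0.05095). Both passed with centring on the array median. Hyal2 also passed with quantile normalization, with the replicate block or without replicate 3 of 36 weeks. Ugdh also passed with the filter at the 60th percentile. Chst11 stood at 0.17 with overlapping ages.

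Signalling genes of cartilage counted 1 higher and 3 lower of 8 tested. Gdf10, a growth factor of the BMP family, rose by 0.57 ± 0.13. Ccn2, a matricellular growth factor, fell by 1.44 ± 0.17, Fgfr3, the receptor that restrains growth plate cartilage and is also found in cochlear supporting cells, by 1.08 ± 0.15, and Tgfbr2 by 0.94 ± 0.09. Ihh and Pth1r, which pace cartilage maturation, did not pass, at 769.9 and 676.9 at 36 weeks and 559.6 and 779.7 at 7 weeks.

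Of the proteases that cut cartilage matrix and their inhibitors 1 was higher and 3 lower of 8 tested. Mmp9, a gelatinase, read 6386.3, 7017.3 and 5827 at 36 weeks, against 1541.3, 1449.2 and 1540.6 at 7 weeks. Timp3, an inhibitor of aggrecan-cutting enzymes, fell by 1.31 ± 0.11 (adjusted p = 6.32e-06), and Adamts5, an aggrecanase, by 0.73 ± 0.17. Adamts1, another protease that cuts aggrecan, had an adjusted p of 0.0327, which became 0.052 to 0.108 without replicate 1 or 3 of 36 weeks or without any 1 array of 7 weeks. Mmp13, the collagenase of hypertrophic cartilage, averaged 2071 at 36 weeks and 2205 at 7 weeks and did not pass.

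In joint lining and tendon 2 of 3 tested genes were lower, Vcam1 at -0.69 ± 0.14 and Fmod. The third, Pdpn, did not pass, and 6 of the 9 genes with a probe set were too dim to test. Tnmd, the closest relative of Cnmd and a marker of tendon, read 92.7, 442 and 344.2 at 36 weeks, against 691.1, 497.6 and 710.6 at 7 weeks, and Scx, the tendon transcription factor, averaged 111.1 at 36 weeks and 278.5 at 7 weeks. Both were below the tested range with no overlap between ages, and like Cnmd they were lower at 36 weeks.

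The paralogues of the members were mixed, some going the way of their member and some the other way. Of 7 tested, 1 was higher, 1 was lower and 5 did not pass. The lower one was Sox10, given above, in the direction of Sox9. Tnmd, also given above and not tested, was lower like Cnmd. Thbs1, of the thrombospondin family of Comp, rose by 0.62 ± 0.15 (adjusted p = 0.00987), while Thbs2, which was not tested, averaged 338.8 at 36 weeks and 723.7 at 7 weeks. Of the matrilins, Matn2 stood at 0.40 and Matn4 at -0.17 on the log2 scale, short of the threshold. Ncan and Bcan, aggrecan relatives of brain, stood at 0.47 and 0.28 without passing, and Vcan, which was not tested, averaged 722.7 at 36 weeks and 391.9 at 7 weeks, opposite in direction to Acan. Hapln2, a link protein of brain, stood at 0.41 and did not pass.

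**Figure D4:**
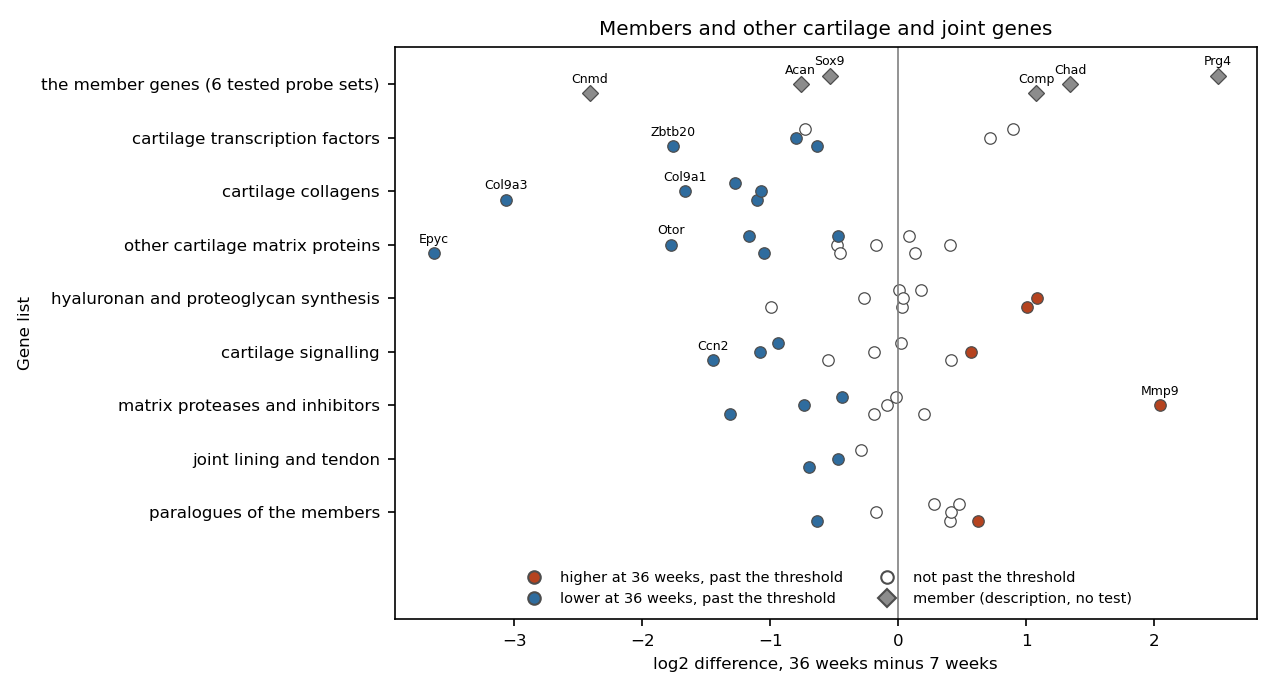
Log2 difference (36 weeks minus 7 weeks) of the 6 tested members (grey diamonds, described without a test) and of the tested genes of 8 cartilage and joint lists, each by its brightest probe set; colour marks genes higher (red) or lower (blue) past an adjusted p of 0.05. All 5 cartilage collagens lie left of 0, whereas the members span -2.41 for Cnmd to 2.50 for Prg4.

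The genes whose pattern over the 6 arrays was most like each member were found by the root mean square difference of centred log2 signals, on the log2 scale. For Prg4 these were Cbln1 (0.11), B4galnt2 (0.13) and Clec4a2 (0.13). Cbln1, secreted by cerebellar neurons, was in the brain list above. For Cnmd they were Mylpf (0.09), a muscle myosin light chain, Otos (0.10), otospiralin of cochlear fibrocytes, and Aif1l (0.11). The nearest patterns of the most changed members thus included marker genes of brain, muscle and cochlea. Chad was closest to Slc25a22, Dlk1 and Ly6h (0.06 to 0.07), and Comp to Mrtfa (0.06), Galnt7 (0.11) and Dgkz (0.12). Acan was closest to Eif3e (0.03), Csrp3 (0.05) and Anapc13 (0.06), and Sox9 to Arl2bp, Csnk1d and Sf3b2 (0.03 to 0.04). Of the dim members, Matn1 was closest to Samhd1, Gnptab and Pim1 (0.07 to 0.08) and Hapln1 to Cnot6l, Aurkc and Lingo1 (0.10 to 0.13). The difference between the ages dominates such a likeness. Signals were centred and not scaled, so it describes the size of the change as well as its shape over 6 arrays.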

How the data were processed

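The values deposited by the authors are intensity values, linear probe-set signals of single-colour arrays, 1 per sample. Per the labels' protocols, RNA was isolated with TriZol and biotin-labelled cRNA was made by in vitro transcription. For the summarising software, nothing is stated by these protocols or headers. The values show arrays scaled to a common level, with means of 1489.8 to 1492.5 after trimming 2% at each end and medians of 766.3 to 859.4. Their absolute scale is unknown. The number of arrays limits the precision.

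Symbols came from the platform annotation, which gave 20380 of 22626 probe sets 1 symbol, 691 several and 1555 none. Signals were transformed as log2(signal + 50), and the 13575 probe sets with a mean signal above the 40th percentile were fitted with limma 3.58.1 (lmFit, eBayes with intensity trend) in R 4.3.3, 36 minus 7 weeks, unpaired and two-sided, with Benjamini-Hochberg adjustment and a threshold of 0.05. The filter used the mean over all arrays, so a gene dim at 1 age could pass. SEs of untested probe sets come from the 6 arrays alone. The fit was tested on simulated data. Exact permutation of 3 against 3 arrays cannot go below p = 0.1 and was not used. The brightest tested probe set stood for a gene in a list. Members and lists were chosen with earlier results of these data known. Named genes were all members, up to 3 per list and direction with the smallest p among those past the threshold, tested paralogues, and the 3 nearest patterns of each member. Untested genes, Col2a1, Frzb and other genes named beyond this rule were chosen after their values were seen. Same-numbered arrays did not deviate together (correlations of 0.05, -0.01 and 0.00), so the numbers were not taken as pairs. Alternatives were the offset, normalization, filter, eBayes trend, replicate block, each array left out, the 9 pairs with a 1.5-fold minimum and averaging the probe sets of a gene. Figures used Python 3.11.15 and matplotlib 3.10.9.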

Additional observations from a re-analysis of the deposited data

How the results depend on the processing

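The 6 tested members kept their direction under quantile normalization, offsets of 16 and 1, median centring, the replicate block and each array left out. Sox9 moved to -1.53 with the mean of its probe sets, from -0.54. Hapln1 reversed without replicate 2 of 36 weeks (-0.17 for 1426294_at and -0.22 for 1426295_at) and without replicate 3 of 7 weeks (-0.22 for 1426295_at), with ranges of -0.17 to 0.49 and -0.22 to 0.57 over the arrays left out. With all 9 pairs in one direction and at least 1.5-fold, a stricter rule by construction, 1397 probe sets passed in place of 4665, and of the other cartilage genes 3 were higher and 13 lower in place of 5 and 20. Among the tested members, Comp, Acan and Sox9 (1451538_at) each had a pair short of 1.5-fold, at 0.54, -0.50 and -0.365 on the log2 scale. Prg4, Chad and Cnmd had no such pair. Leaving out 1 array gave 3703 to 4092 probe sets, 5 to 6 cartilage genes higher and 17 to 20 lower. With the replicate block 4375 probe sets passed, 5 cartilage genes were higher and 21 lower. The pairing of numbers is not borne out by the arrays. Centring on the array median shifted the median of all probe sets to -0.08, from 0.02, and the share of calls that were higher to 36%, from 48.6%, with 5 cartilage genes higher and 25 lower. A filter on the mean log2 value, added after seeing the data, gave 4558 probe sets and the same counts of 5 and 20. Dim signals limit Hapln1 and Matn1. The probe set 1424950_at of Sox9 was dim at 36 weeks, averaging 109.2, against 931.8 at 7 weeks. Its mean over both ages missed the filter.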
